A study of Danio rerio with 12 samples.

Results

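The genes of the cytosolic ribosomal proteins were followed in zebrafish moonshine (mon) embryos and their siblings. Members were all rows of the gene count table whose zebrafish gene name begins with rpl or rps and a digit, or with rplp, without the kinases named rps6k. The rule took 84 of 32520 rows, of which 36 are named for the small (40S) subunit, 47 for the large (60S) subunit and 1, rps19bp1, for a protein that binds Rps19. Of the 84, 7 carry the name of a binding protein or of a related copy (rpl22l1, rplp2l, rpl7l1, RPL36AL, rps19bp1, rps11l and rps27l). Enough reads for a test were found for 83 members among 21778 genes tested, and rpl26, with 70 reads over all libraries, was not tested. A symbol printed in capitals is borrowed from an orthologue, and 8 members share a symbol with another copy, so their Ensembl identifier is printed.

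In the mon line trim33 is mutated, which encodes TIF1γ, a cofactor of transcription, and mutants form hardly any red blood cells. Parents heterozygous for mon were crossed so that embryos carried 1 allele of the drl:EGFP reporter, and embryos were sorted from about 21 hours post fertilization (hpf) on that green fluorescence, so groups rest on phenotype. The 4 groups were mon at 22 hpf, phenotypically wild-type siblings (labelled wild-type/het) at 22 hpf, and the same pair at 30 hpf, all untreated. Each of the 3 libraries of a group held RNA of 30 pooled whole embryos of 1 clutch, the offspring of a single mating. Clutches 9, 11 and 13 were sampled at 22 hpf and clutches 3, 4 and 9 at 30 hpf, with mon and siblings taken from the same clutch.

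The cytosolic ribosome is built from a small subunit that reads the mRNA and a large subunit that joins amino acids, and each holds 1 copy of most of its proteins. Its proteins are made in the cytoplasm, enter the nucleolus and are assembled there on ribosomal RNA that RNA polymerase I transcribes. In people, loss of 1 allele of a ribosomal protein gene such as RPS19, RPL5 or RPL11 causes Diamond-Blackfan anaemia, a failure of red blood cell formation, which makes these genes of interest in an embryo without red cells. No sequence of a member could be read from the sources used here, so members are given by name and identifier.

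Libraries held 18233320 to 23135676 counts. The mutated gene itself stood at 50.7 to 67.7 CPM (read counts scaled to a common library size with the TMM factors of edgeR) in mon and at 84.2 to 89.4 in siblings at 22 hpf, and at 71.7 to 72.9 and 75.5 to 78.0 at 30 hpf. Its log2 fold change was -0.56 ± 0.08 (SE) at 22 hpf (edgeR, adjusted p = 0.00129) and -0.08 ± 0.08 at 30 hpf (edgeR, adjusted p = 1.0). The 11 erythroid markers followed summed to 12.2 to 14.2 CPM in mon and 328 to 371 CPM in siblings at 22 hpf, and to 19.9 to 23.8 and 1749 to 1874 CPM at 30 hpf. All 11 were lower in mon, 9 of them past the test at 22 hpf and 10 at 30 hpf, and none was at 0 in every library of a group. In whole embryos, fewer cells of a type and less RNA per cell cannot be told apart.

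Ribosomal protein genes took 4.78 to 5.48% of all counts of a library. The share was 5.29% ± 0.0845 (SD, n = 3) in mon and 5.40% ± 0.0980 in siblings at 22 hpf, and 4.90% ± 0.0522 in mon and 4.86% ± 0.0843 in siblings at 30 hpf. It was thus larger in each of the 6 libraries of the earlier stage than in any of the 6 of the later stage, whereas mon and sibling ranges overlapped at both stages. Within clutches mon lay below its siblings in 3 of 3 pairs at 22 hpf and above them in 3 of 3 pairs at 30 hpf. Scaled by TMM, the shares lay closer together, at 5.17% in mon and 5.24% in siblings at 22 hpf and at 5.04% and 5.01% at 30 hpf. On that scale libraries of both stages overlapped, with 5.05% in mon of clutch 11 at 22 hpf and 5.12% in mon of clutch 3 at 30 hpf, and mon lay lower in 2 of 3 pairs at 22 hpf and higher in 3 of 3 at 30 hpf. Reads on small-subunit genes stood to reads on large-subunit genes at a ratio of 0.628 to 0.660 in the 12 libraries. By reads per gene, which were not divided by transcript length, rps2, rplp0 and rpl3 had the highest counts (2253, 2083 and 2027 CPM over all libraries). The lowest were rpl26 and rps11l, at 0.285 and 0.446 CPM, and rpl9, a core large-subunit protein, stood at 9.48 CPM. Near-identical copies elsewhere in the genome can draw reads away from such genes, which was not tested here.

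The first question was whether the ribosomal protein mRNAs differ between mutants without red cells and siblings. None of the 83 members passed the test at 22 hpf, at 30 hpf, or in the difference between both effects (edgeR quasi-likelihood, adjusted p under 0.05 over all genes). That fit left out clutch, by which mon and siblings are paired. DESeq2 and limma-voom, also without clutch, called 0 as well. Unadjusted edgeR p-values lay under 0.05 for 2, 1 and 0 members, beside 935, 1210 and 698 of all 21778 genes. Of all genes tested, 0.445% were called at 22 hpf, 0.79% at 30 hpf and 0.0872% in the difference. The median log2 fold change of the members was -0.01 at 22 hpf, with 61 of 83 below 0, and 0.01 at 30 hpf, with 51 of 83 above 0. The median over all genes was 0.00 at both stages. Leaving out single libraries moved the median of members from -0.03 to 0.00 at 22 hpf and from 0.00 to 0.02 at 30 hpf. The median of the differences between stages was 0.03.

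In this fit without clutch, the test was narrow for most members. The median standard error of a log2 fold change was 0.0468 at 22 hpf, and the 95% interval stayed within 1.2-fold of equal levels for 76 of 83 members at 22 hpf and 74 of 83 at 30 hpf. Over the 81 members above 3 CPM, fold changes ran from -0.13 to 0.12 on the log2 scale at 22 hpf and from -0.13 to 0.12 at 30 hpf. Members with intervals that reached further included rpl22l1, rpl9, rpl29, rps27l, rps19bp1 and rps11l at both stages and rpl7l1 and rplp2 at 30 hpf. For those the interval holds differences beyond 1.2-fold. That of rps11l at 22 hpf lay below 0, from -2.50 to -0.04 around -1.27, but the gene rests on 110 reads in all and did not pass the test (edgeR, adjusted p = 1.0).

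**Figure D1:**
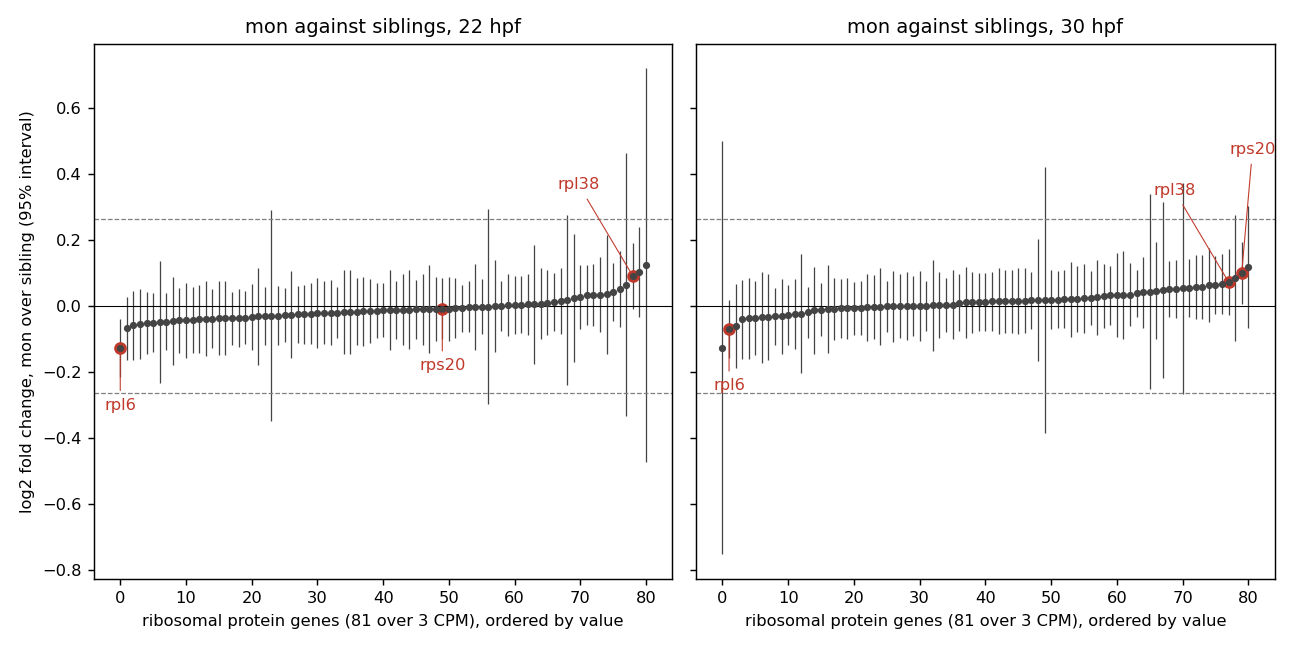
Log2 fold change of mon over siblings with its 95% interval (edgeR fit without clutch, 3 libraries a group) for the 81 members above 3 CPM. Members are ordered by value at 22 hpf (left) and 30 hpf (right), with dashed lines at 1.2-fold. Points run from -0.13 to 0.12 in both panels, and 3 members described in the text are marked in red.

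The paired fit, with clutch as a replicate block, compares mon with siblings inside each clutch and called 1 member at each stage. It called 1.48% of all genes at 22 hpf, 3.09% at 30 hpf and 0.482% in the difference, where it called 0 members. At 22 hpf the member was rpl6, a large-subunit protein, and at 30 hpf rps20, a small-subunit protein of the head of the 40S subunit.

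At 22 hpf rpl6 stood at 945, 876 and 963 CPM in mon of clutches 9, 11 and 13 and at 1034, 981 and 1029 CPM in the siblings. At 30 hpf it stood at 939.6, 956 and 982 CPM in mon of clutches 3, 4 and 9 and at 1002, 1013 and 1005 CPM in the siblings. Mon lay below its siblings in all 6 clutch pairs, and the groups did not overlap at either stage. The log2 fold change was -0.13 ± 0.04 at 22 hpf (edgeR, adjusted p = 0.532; adjusted p = 0.00244 with the block) and -0.07 ± 0.04 at 30 hpf (adjusted p = 1.0; adjusted p = 0.232 with the block), or -8.53% and -4.71%. In the gene order of the RefSeq assembly GRCz12tu, rpl6 lies on the chromosome of trim33, 153 genes away, and rpl10a lies 389 genes away; a part of that position in the difference was not tested. The fold change of rpl10a was 0.00 at 22 hpf and 0.05 at 30 hpf, neither past the test.

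At 30 hpf rps20 stood at 839, 791 and 824 CPM in mon and at 774, 751 and 767 CPM in siblings. All 3 mon libraries lay above all 3 sibling libraries at that stage. The log2 fold change was 0.10 ± 0.04 (edgeR, adjusted p = 0.825; adjusted p = 0.0372 with the block). At 22 hpf it was -0.01, with 819, 759 and 775 CPM in mon and 829, 765 and 774 CPM in siblings, and the change in effect between stages did not pass the test (edgeR, adjusted p = 1.0).

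A second member whose groups were apart at both stages was rpl38, a large-subunit protein known in mice for its part in body patterning. It stood at 278, 264 and 270.2 CPM in mon and at 254, 249.8 and 259 CPM in siblings at 22 hpf. At 30 hpf it stood at 238, 222 and 223 CPM in mon and at 221, 215 and 214 CPM in siblings. The log2 fold changes of 0.09 ± 0.05 and 0.07 ± 0.05 did not pass the test in either fit. Together rpl6 and rpl38 made 2 of 83 members whose mon and sibling libraries did not overlap, in the same direction, at both stages, beside 1.66% of all genes tested. Groups were apart for 4 members at 22 hpf, beside 8.45% of all genes, and for 11 at 30 hpf, beside 12.3%. Mon lay above its siblings in every clutch pair for 3 members, rpl38, rps18 and rps29.

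**Figure D2:**
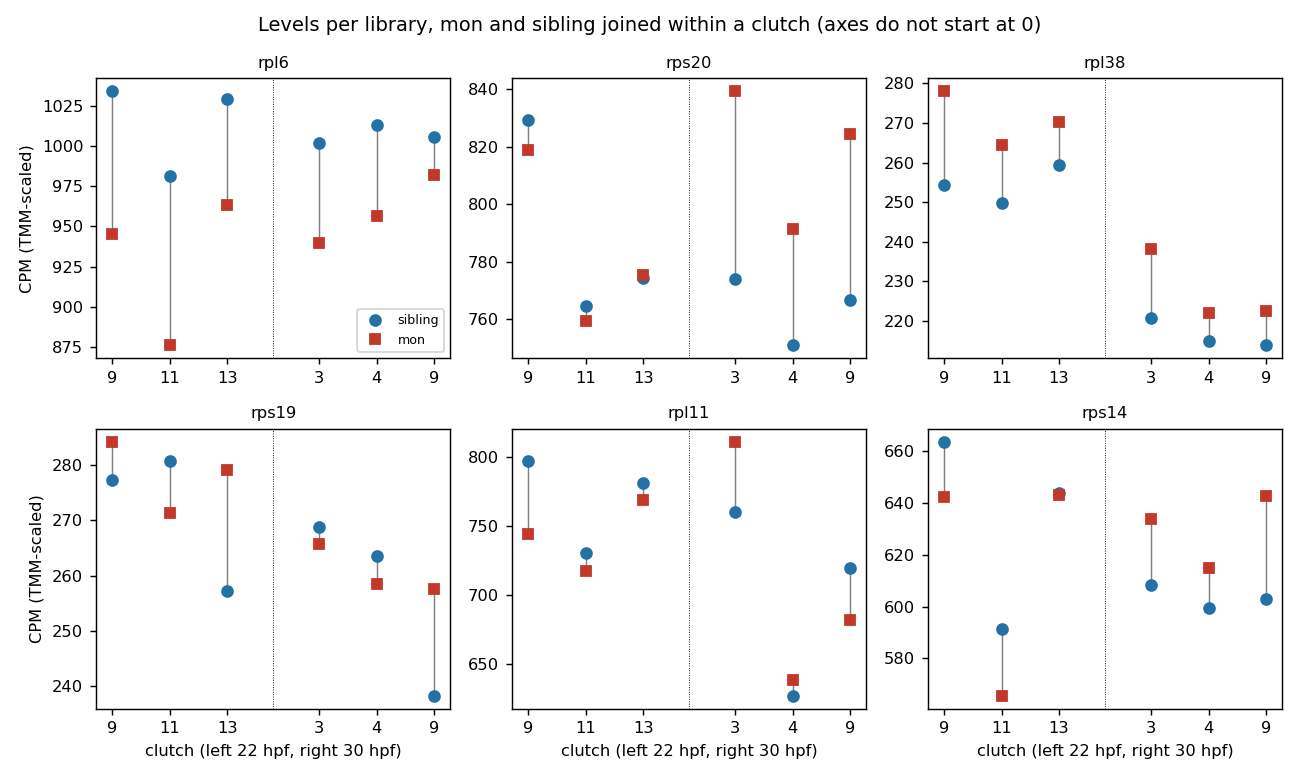
TMM-scaled CPM of 6 members in every library, with mon (red squares) and siblings (blue circles) of a clutch joined by a line and axes that do not start at 0. Mon lies below its sibling in all 6 pairs for rpl6 and above it in all 6 for rpl38, while rps20 is apart at 30 hpf.

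Ribosomal protein genes linked to Diamond-Blackfan anaemia in people showed no call. Of 24 tested copies, 0 passed the test at either stage, with a median log2 fold change of -0.02 at 22 hpf and 0.01 at 30 hpf. The block called 1 of them, the rps20 described above, at 30 hpf. The small-subunit gene rps19, most often affected in patients, stood at 284, 271 and 279 CPM in mon and at 277, 281 and 257 CPM in siblings at 22 hpf. Its groups overlapped, and the log2 fold change was 0.03 ± 0.05. At 30 hpf rps19 stood at 266, 258 and 258 CPM in mon and at 269, 264 and 238 CPM in siblings, again overlapping, with a fold change of 0.02 ± 0.05.

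The large-subunit proteins Rpl5 and Rpl11 form a particle with the 5S ribosomal RNA, and free particles bind the p53 regulator Mdm2 in mammalian cells. At 22 hpf rpl11 stood at 745, 717 and 769 CPM in mon and at 797, 730.2 and 782 CPM in siblings, and at 30 hpf at 811, 639 and 682 CPM against 760.3, 627 and 719 CPM. At 30 hpf clutch 3 was highest in both genotypes and clutch 4 lowest, and the fold changes were -0.05 ± 0.09 and 0.02 ± 0.09. The 2 copies of RPL5 had fold changes of -0.01 and 0.00 at 22 hpf and of -0.01 and 0.02 at 30 hpf. For rps14, a small-subunit gene lost in a human bone marrow disorder with anaemia, they were -0.04 ± 0.05 and 0.06 ± 0.05. At 30 hpf its mon libraries (634, 615 and 643 CPM) lay above its sibling libraries (608, 599.5 and 603 CPM), without passing the test. Of 14 tested p53 target genes, 0 passed the test at either stage, and rps27l, a member that p53 activates in human cells, stood at 10.9, 11.2 and 10.9 CPM in mon and 10.9, 10.5 and 11.1 CPM in siblings at 22 hpf.

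Members named for each subunit gave like medians. The 36 small-subunit genes had a median log2 fold change of -0.02 at 22 hpf and 0.01 at 30 hpf, and the 46 tested large-subunit genes -0.01 and 0.01. Parts of the ribosome with other names, fau and rack1, passed the test in no comparison.

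The machinery that builds ribosomes was followed in separate lists of genes. Of 94 tested assembly factors, 0 passed at 22 hpf (median 0.02) and 0 at 30 hpf (median 0.13, with 85 above 0 and 27 at an unadjusted p under 0.05). Over all 21778 genes tested at 30 hpf, 10983 lay above 0, 1210 had an unadjusted p under 0.05, and the block called 334 higher. DESeq2 called 1 of the 94 higher in mon at each stage, beside 54 of all genes at 22 hpf and 85 at 30 hpf. The block called 0 of the 94 at 22 hpf and 16 higher in mon at 30 hpf. Among them nop58, a core protein of the particles that methylate ribosomal RNA, stood at 86.0, 102 and 86.7 CPM in mon and at 78.5, 76.5 and 72.9 CPM in siblings at 30 hpf. Its mon libraries all lay above its sibling libraries, with a fold change of 0.27 ± 0.07 in log2 units (adjusted p = 0.109 by edgeR, and adjusted p = 2.13e-05 with the block). The difference of tsr2 was larger, at 0.65 ± 0.17 at 22 hpf and 0.74 ± 0.18 at 30 hpf, without a call in either edgeR fit. Its adjusted p (edgeR) was 0.281 and 0.123, or 0.134 and 0.0748 with the block. Sibling libraries of tsr2 spread widely, at 25.2 ± 6.18 CPM (SD, n = 3) against 39.4 ± 1.63 in mon at 22 hpf.

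Of 13 tested genes of RNA polymerase I and its factors, polr1f, a subunit of the enzyme, was called higher in mon at 30 hpf. It stood at 12.4, 17.0 and 11.9 CPM in mon and at 8.85, 9.53 and 8.87 CPM in siblings, with no overlap. The log2 fold change was 0.60 ± 0.13 (edgeR, adjusted p = 0.0349), and the median of the 13 was 0.17. The block called 4 of the 13 higher, beside 334 of all 21778 genes tested, and limma-voom called 0 of the 13. Of 75 tested mitochondrial ribosomal proteins, 0 were called at either stage (medians 0.04 and 0.06), and of 34 translation factors and other mRNAs of the same regulatory class 0 were called at either stage. In this last list the block called 1 lower at 22 hpf, ybx1 (log2 -0.13, adjusted p = 0.0196 with the block), and 1 higher at 30 hpf, eif4a1a (0.15, adjusted p = 0.000207 with the block).

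The stages were compared next, within siblings and within mon. In siblings 15 of 83 members were lower and 1 was higher at 30 than at 22 hpf (edgeR), where 20.7% of all genes tested were lower and 22.4% were higher. In mon 10 members were lower and 1 was higher, beside 20.2% lower and 22.1% higher of all genes. Shares of 15 and 10 in 83 are thus close to or under the background. The median log2 change of members was -0.07 in siblings, which is -4.58%, and -0.04 in mon, against -0.02 and -0.01 over all genes. Sizes were small: the median absolute log2 change was 0.0678 for members and 0.403 for all genes in siblings. Members and all genes were not matched for read depth.

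Clutch 9 was the single clutch sampled at both stages, so the other clutches' differences and the stage cannot be told apart. Without clutch 9 the test called 3 members lower in siblings and 4 in mon. The share of all genes called in that setting is not given here, so these counts have no background. There the median of members lay -0.03 (siblings) and -0.02 (mon) from the median of all genes. With the block, where the stage rests on clutch 9, 36 were lower in siblings and 23 in mon, beside 20.5% and 19.7% of all genes, and 1 was higher in each, beside 22.1% and 21.7%. Within clutch 9 the median change was -0.11 in siblings and -0.06 in mon, and between clutches 3 and 4 and clutches 11 and 13 it was -0.04 and -0.03. With library totals in place of TMM factors the median of all genes moved by about 0.1, and 55 and 40 members were called lower, while members lay -0.05 and -0.03 from the median of all genes, as with TMM. The share of all genes called with library totals is not given here either.

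Of the lower members, 9 were called in both genotypes, which is 60% of the 15 in siblings and 90% of the 10 in mon. Over all genes tested the shared lower calls made 81.1% of those in siblings and 83.4% of those in mon. They were rpl7l1, rps27l, rpl38, rpl23, rpl23a, rps15a, rps28, RPL36AL and rps19bp1. The rest of the sibling calls were rpl10a, rps15, rpl22, rps23, rpl32 and rpl7a, and mon added rpl36. The difference between the stage changes of both genotypes is the same test as the difference of mon effects, which called 0 members. Some calls were lost with 1 library fewer, at changes mostly as large. Whichever of the 6 sibling libraries was left out, rpl22 changed by -0.13 to -0.12, and its adjusted p (edgeR) was 0.0558 to 0.0798. For rps28 the adjusted p was 0.0673 to 0.223 without any sibling library but that of clutch 4, with changes of -0.15 to -0.14, or -0.09 without clutch 9 at 30 hpf. For rps15 it was 0.0605, at -0.11, without the sibling library of clutch 9 at 22 hpf. For rpl36 in mon it was 0.0649 (at -0.18) without clutch 11 at 22 hpf, 0.129 (at -0.15) without clutch 9 at 22 hpf and 0.123 (at -0.14) without clutch 9 at 30 hpf.

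The change of rpl7l1 stood out in size. Its yeast relative Rlp7 is an assembly factor of the large subunit and no part of the finished ribosome. It stood at 91.9, 94.8 and 104 CPM in mon and 88.2, 95.3 and 100.1 CPM in siblings at 22 hpf, and at 39.3, 43.6 and 42.1 CPM in mon and 33.5, 43.0 and 38.9 CPM in siblings at 30 hpf. Every library of the later stage lay below every library of the earlier one. The log2 change was -1.30 ± 0.09 in siblings (edgeR, adjusted p = 2.52e-09) and -1.22 ± 0.09 in mon (adjusted p = 6.04e-09), and within clutch 9 it was -1.18 and -1.12. Its namesake in the ribosome, rpl7, changed by -0.05 and -0.04, which did not pass the test.

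For rps27l the 6 libraries of 22 hpf lay between 10.5 and 11.2 CPM and the 6 of 30 hpf between 6.37 and 7.41 CPM. The log2 change was -0.64 ± 0.12 in siblings (edgeR, adjusted p = 0.000431) and -0.61 ± 0.12 in mon (adjusted p = 0.00067). The binding protein rps19bp1 stood at 26.5, 43.3 and 29.2 CPM in mon and 23.9, 42.1 and 24.9 CPM in siblings at 22 hpf, highest in clutch 11 in both genotypes. At 30 hpf it stood at 18.1, 11.0 and 14.8 CPM in mon and 17.8, 13.9 and 16.2 CPM in siblings. Its log2 change was -0.92 ± 0.27 in siblings and -1.17 ± 0.28 in mon (edgeR, adjusted p = 0.0204 and 0.00612). Without clutch 9 the changes of rps19bp1 were larger, at -1.06 and -1.30, while the adjusted p-values were 0.0915 and 0.0539. In siblings the change was -0.61 (adjusted p = 0.0513) without clutch 11 at 22 hpf, -0.83 (0.0734) without clutch 4 at 30 hpf and -0.93 (0.0555) without clutch 9 at 30 hpf.

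Among structural proteins of the ribosome that were called lower in siblings, rpl38 fell furthest, by 0.23 ± 0.05 in log2 units (adjusted p = 0.000659 by edgeR). Its change in mon was -0.25 ± 0.05 (edgeR, adjusted p = 0.000355). The other members called lower, apart from rpl7l1, rps27l and rps19bp1, changed by -0.16 to -0.09 in siblings and by -0.20 to -0.10 in mon. Outside the binding and related copies, changes without a call reached -0.36 in siblings and -1.04 in mon. The 1 member that rose was rplp2, of the acidic stalk of the large subunit to which elongation factors bind. It stood at 84.5, 85.7 and 78.6 CPM in mon and 83.4, 84.9 and 76.5 CPM in siblings at 22 hpf, and at 137, 103 and 108 CPM in mon and 117, 108 and 103 CPM in siblings at 30 hpf. The log2 change was 0.42 ± 0.09 in siblings (edgeR, adjusted p = 0.00118) and 0.48 ± 0.09 in mon (adjusted p = 0.000385).

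**Figure D3:**
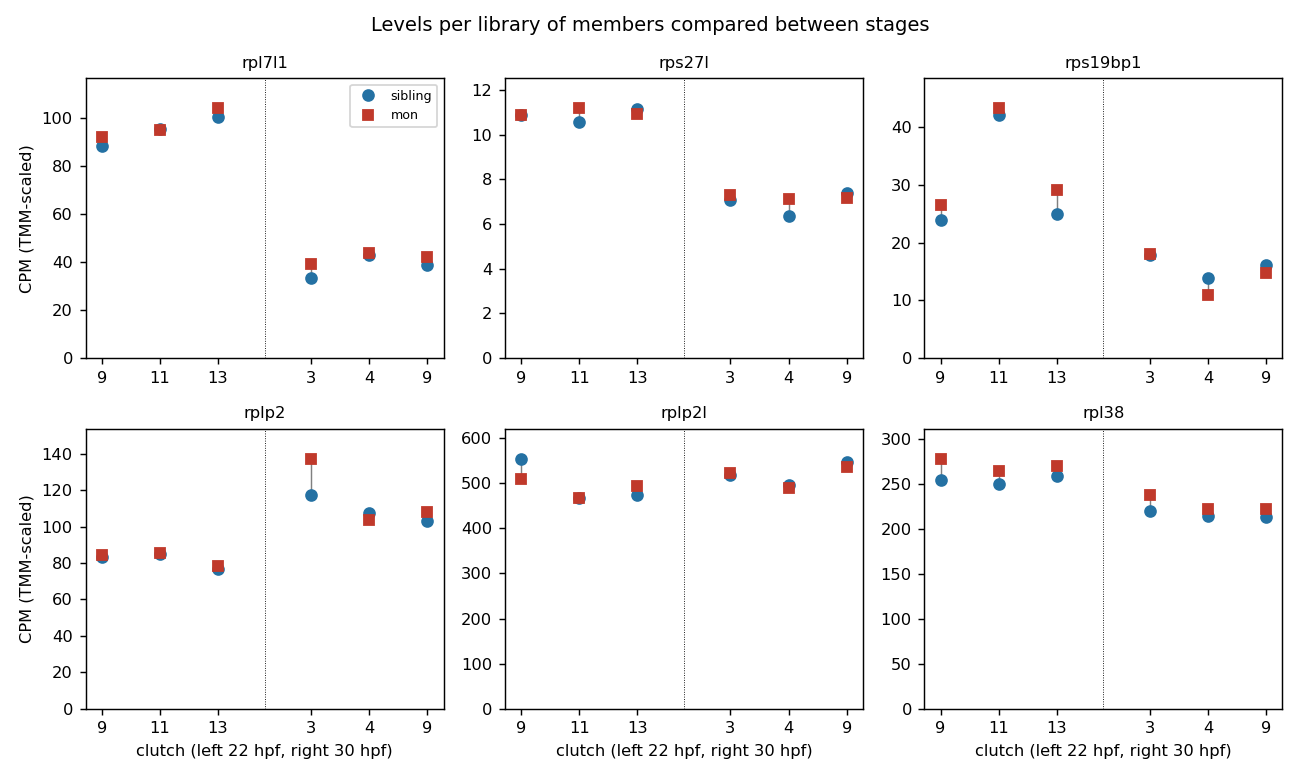
TMM-scaled CPM in every library for 6 members, with 22 hpf to the left of the dotted line and 30 hpf to the right, mon as red squares and siblings as blue circles. For rpl7l1, rps27l and rps19bp1 every library of 30 hpf lies below every library of 22 hpf, and for rplp2 every one lies above, while rplp2l overlaps between stages.

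Where a member has another copy, or a related copy by name that need not encode the same protein, the split of reads within the pair was followed. Of the reads on rpl7 and rpl7l1 together, rpl7l1 held 8.55% ± 0.206 in mon and 8.26% ± 0.449 in siblings at 22 hpf, and 3.97% ± 0.223 and 3.66% ± 0.440 at 30 hpf (SD, n = 3). Of those on rplp2 and rplp2l, rplp2 held 14.5% ± 0.897 and 14.1% ± 1.15 at 22 hpf and 18.3% ± 2.15 and 17.4% ± 1.33 at 30 hpf. The RPL5 copy ENSDARG00000020197 held 46.3% and 46.0% of the pair at 22 hpf and 48.2% and 47.8% at 30 hpf. In these pairs the stages were further apart than the genotypes.

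In the pairs of rpl22, rps26 and rps27 libraries of both stages overlapped. Of reads on rpl22 and rpl22l1, of which Rpl22l1 can take the place of Rpl22 in mice that lack it, rpl22l1 held 24.3% ± 1.45 in mon and 24.6% ± 3.07 in siblings at 22 hpf and 26.4% ± 3.04 and 26.1% ± 3.04 at 30 hpf. Shares of the second copy ranged over all libraries from 37.0 to 40.9% for rps26 and from 25.2 to 27.2% for rps27.1 and rps27.2. Copies this alike can exchange reads in counting, so such splits are uncertain.

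Genes that assemble ribosomes changed far more between the stages than the proteins of the ribosome. Of 94 assembly factors, 89 fell in siblings and 89 in mon, beside 20.7% and 20.2% of all genes. Their median log2 changes were -1.17 and -1.06. Nucleolin (ncl), an abundant nucleolar protein, stood at 897 to 988 CPM in the 6 libraries of 22 hpf and at 369 to 452 CPM in the 6 of 30 hpf. Its log2 change was -1.24 ± 0.05 in siblings and -1.17 ± 0.05 in mon (edgeR, adjusted p = 1.03e-11 and 2.6e-11). Of the 13 RNA polymerase I genes, 13 fell in siblings and 12 in mon (medians -1.10 and -0.85), among them polr1b, the second-largest subunit, by -1.69 ± 0.09 and -1.34 ± 0.09 on the log2 scale.

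Other parts of protein synthesis had smaller medians. Over all genes tested, 20.7% fell and 22.4% rose in siblings, and 20.2% fell and 22.1% rose in mon. Of 75 mitochondrial ribosomal proteins, 17 (22.7%) fell and 0 rose in siblings, and 11 (14.7%) fell and 0 rose in mon. Those below 0 numbered 60 and 57 (medians -0.14 and -0.13). Of 34 translation factors and mRNAs of their class, 9 rose and 14 fell in siblings, and 8 rose and 15 fell in mon. The copies eif4a1b and eif4a1a, genes of the RNA helicase eIF4A, went opposite ways in siblings. Their log2 changes were 0.98 ± 0.06 and -0.90 ± 0.06 (edgeR, adjusted p = 3.32e-10 and 5.88e-09). Of the 24 ribosomal protein genes linked to Diamond-Blackfan anaemia 1, rps28, was lower in each genotype. Of the 14 p53 targets 4 rose and 4 fell in siblings and 2 rose and 4 fell in mon, rps27l among the fallen.

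**Figure D4:**
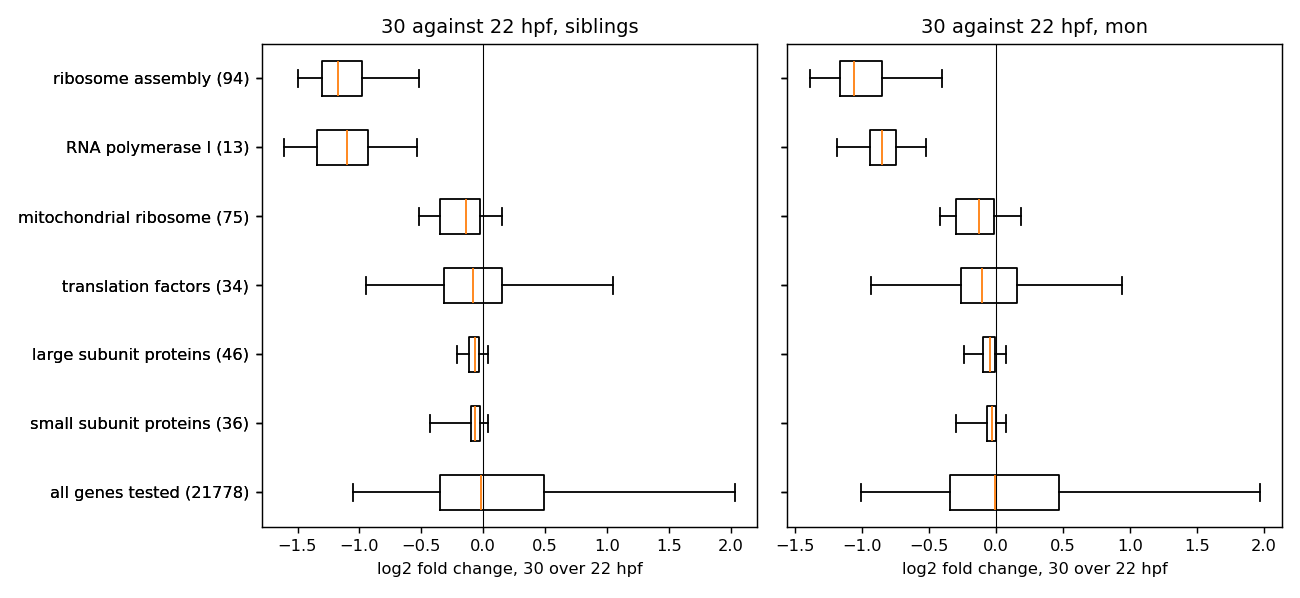
Log2 change from 22 to 30 hpf for the genes of each list, with the number tested in brackets, in siblings (left) and mon (right); boxes span the quartiles with the median in orange, and whiskers the 5th to 95th percentiles. Both subunits lie in narrow boxes near 0, and assembly factors and RNA polymerase I genes lie near -1.

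Clutches were compared last. An edgeR F test of clutch, added after the data had been seen, called 32 of 83 members, which is 38.6%, beside 22.3% of all genes tested. Members and all genes were not matched for read depth, on which the power of the test depends, so the shares are not directly comparable. The member with the smallest p was rpl29, a small protein on the surface of the large subunit. In clutches 9, 11 and 13 at 22 hpf it stood at 188, 136 and 167 CPM in mon and at 191, 134 and 167 CPM in siblings. Clutches thus differed by up to 1.40-fold, while mon and siblings of a clutch lay within 1.54% of each other (edgeR, adjusted p of clutch = 3.81e-12). At 30 hpf clutches differed in rpl29 by up to 1.13-fold, with a gap of up to 9.05% between mon and siblings of a clutch.

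Next in order of p were rps19bp1, rpl35, rpl11 and rpl22l1. For rps19bp1 the highest clutch stood to the lowest at 1.70-fold at 22 hpf and 1.44-fold at 30 hpf, with gaps within a clutch of up to 17.3% and 20.7%. For rpl22l1 these values were 1.31-fold and 1.27-fold, with gaps of up to 8.18% and 15.6%. Clutches differed in rpl11 by 1.07-fold at 22 hpf, about as much as the gap of up to 6.57% within a clutch, and by 1.24-fold at 30 hpf, with a gap of up to 6.69%. For rpl35, which lies by the exit of the tunnel for the new protein, clutch 9 was low at 22 hpf, with 617 CPM in mon and 609.9 in siblings against 696 to 710.1 CPM in the other 4 libraries. At 30 hpf the 2 libraries of clutch 9 were again the lowest, at 576 and 579 CPM. The source of the clutch differences was not tested.

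**Figure D5:**
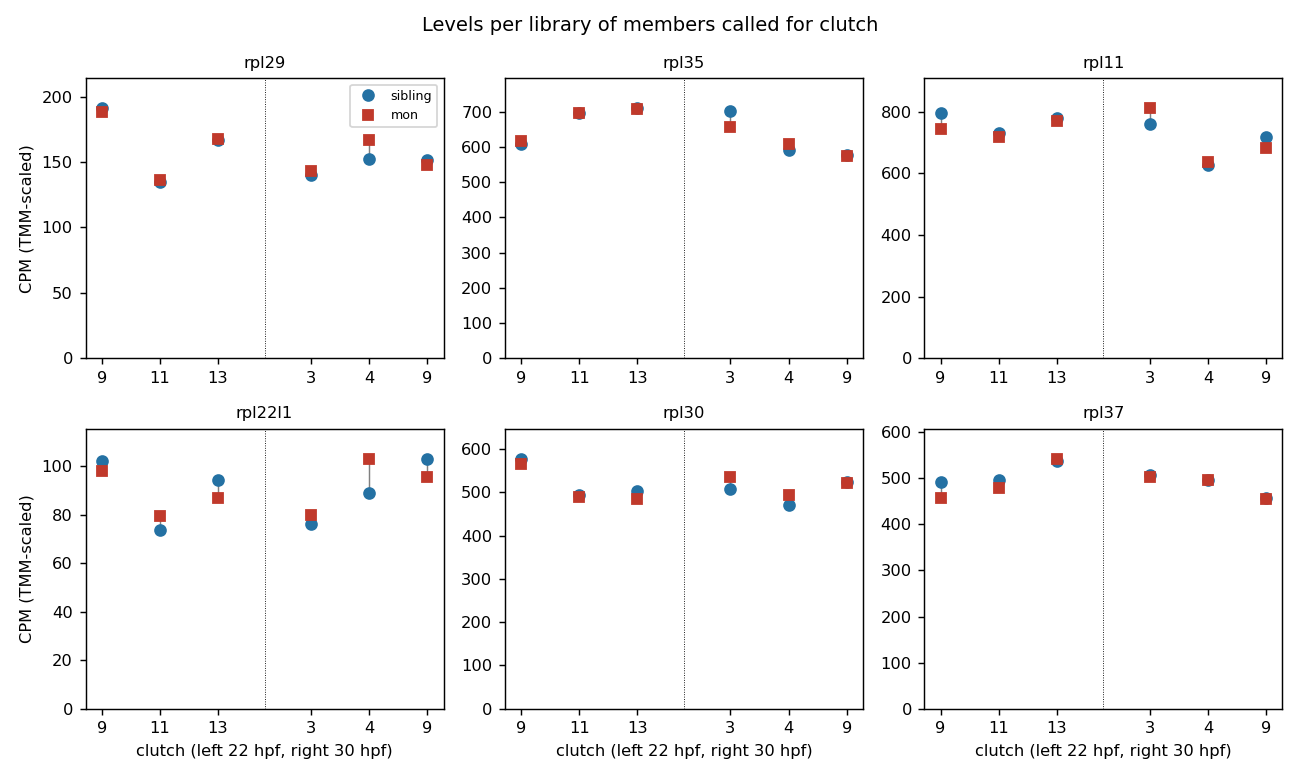
TMM-scaled CPM in every library for 6 members called in the test of clutch, with 22 hpf to the left of the dotted line and 30 hpf to the right. Mon are red squares and siblings blue circles. For rpl29, levels run from 134 to 191 CPM between clutches at 22 hpf, with mon and siblings of a clutch within 1.54%. At 30 hpf mon and siblings of a clutch lie up to 9.05% apart in rpl29 and up to 15.6% in rpl22l1.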

How the data were processed

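Directional libraries were made from whole-embryo RNA depleted of ribosomal RNA, per the labels' protocols. The authors deposited raw read counts per gene in a single table of 32520 Ensembl identifiers. The build GRCz11 and the tools HTSeq, TopHat2 2.0.11, Cufflinks 2.2.1, cutadapt and FastQC are named per the submitters' processing notes, without their role. Strand setting and annotation release are not given in the sources, so overlapping, antisense and near-identical genes may share reads. Names were matched to 29201 identifiers. The table held 0 rows that name no gene and 0 columns not tied to a sample.

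Counts were tested in edgeR 4.0.16 under R 4.3.3 (robust glmQLFit, then glmQLFTest), in 1 fit of the 4 groups over all 12 libraries, with TMM factors (0.967 to 1.04), filterByExpr and Benjamini-Hochberg adjustment over 21778 genes. Residual degrees of freedom were 8, and the common biological coefficient of variation was 0.142. Standard errors were worked back from the F statistic. Alternatives were the replicate block, other scalings, no filter, DESeq2 1.42.0, limma-voom (limma 3.58.1), fewer libraries and a narrower membership. The code was tested on simulated data. Replicates were separate clutches, and the counts of 2 libraries of a group differed beyond sampling noise. The labels pair mon and sibling libraries by clutch: the correlation of their deviations from group means was 0.509 to 0.690 within a clutch and -0.366 to -0.194 between clutches.

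Named members were, per comparison, up to 4 in each direction with the smallest p, the paralogue pairs, the 3 highest and 3 lowest levels, rps19, rpl11, RPL5, rps14, rpl22 and rpl22l1, and of other lists up to 3 genes with the smallest p. Members named for clutch or for groups without overlap were chosen after their values were seen, as were the members of stage calls listed by name. Members and lists were chosen with earlier results of these data known. Of 282 list names, 15 matched no identifier. RefSeq GRCz12tu was used for the order of genes alone. Some members counted in the totals are not reported here by name.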

Additional observations from a re-analysis of the deposited data

How the results depend on the processing

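No called value changed direction, while the medians of members for mon against siblings, all near 0, crossed 0 when single libraries were left out. With clutch as a replicate block (paired fit), 1 member was lower at 22 hpf and 1 higher at 30 hpf in mon, and 36 (siblings) and 23 (mon) were lower at the later stage. The median for mon at 30 hpf was 0.0154 with library totals, 0.0102 with limma-voom, 0.00578 without clutch 9 and 0.0111 without binding and related copies, and ran from -0.00131 to 0.0228 when 1 library was left out. With library totals the stage comparison gave 55 lower members and a median of -0.15 in siblings, and 40 and -0.11 in mon. Without clutch 9 it gave 3 lower and a median of -0.0194 in siblings, and 4 lower in mon. Leaving out 1 library gave 8 to 15 lower members in siblings and 5 to 9 in mon. In mon, DESeq2 called 6 lower, the 6 libraries alone 6, the narrower membership 6, and limma-voom 2 higher. In siblings, DESeq2 called 10 lower, the 6 libraries alone 10, the narrower membership 11 and limma-voom 16. Of all 21778 genes, DESeq2 called 4419 lower in mon and 4490 in siblings. Limma-voom called 4847 of them higher in mon and 4481 lower in siblings. The other stage counts, except those of the block and the narrower membership, are given without the share of all genes called in the same setting. Without mitochondrially encoded and the 10 most abundant genes in the denominator, the shares were 6.36% (mon) and 6.44% (siblings) at 22 hpf and 6.06% and 5.99% at 30 hpf. Among named genes 3317 values kept their side of the threshold, 45 newly passed it and 33 no longer did; the cause was not tested, though fewer libraries also give a weaker test. Depth limits rps11l and rpl26, and intervals cover counting and library spread only.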
